A study of Mus musculus with 36 samples.

Results

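The genes for the Toll-like receptors *Tlr2*, *Tlr3*, *Tlr4*, *Tlr7*, *Tlr8*, *Tlr9* and *Tlr13*, the LPS co-receptors *Cd14* and *Ly96*, and the adaptor *Myd88* were followed in tumour-associated macrophages (TAMs) and CD8+ T cells of MC38 tumours. The members were chosen by gene name, with earlier results of these data known, and all 10 were found among the 24781 genes measured. MC38 is a mouse colon adenocarcinoma line that was inoculated intradermally. On day 7 after inoculation, 100 TAMs (CD45+CD11b+F4/80 high) or 100 CD8+ T cells (CD45+TCRβ+CD8+) were sorted per mouse, and each mouse gave 1 library of a cell type. The 3 groups were WT mice, *muMt*-/- mice, which have no mature B cells, and *muMt*-/- mice with an implanted pellet that slowly releases GABA (γ-aminobutyric acid), with 6 libraries per group and cell type. The *muMt*-/- mice were on C57BL/6J and the WT mice on C57BL/6J or C57BL/6N, all adult. For the WT and the untreated *muMt*-/- libraries the labels list no pellet, while the methods of the study describe placebo pellets. The study calls the WT and *muMt*-/- mice of the TAM libraries placebo-treated, and "untreated" here means without GABA. B cells are missing from the whole body in *muMt*-/- mice and not from the tumour alone, and GABA-treated WT mice were not analysed here.

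Toll-like receptors bind molecules that are shared by many microbes or released by damaged cells. *Tlr2* and *Tlr4* act at the cell surface, where they sense lipoproteins and lipopolysaccharide (LPS), while *Tlr3*, *Tlr7*, *Tlr8*, *Tlr9* and *Tlr13* act in endosomes and sense nucleic acids. CD14 hands LPS to the complex of TLR4 and MD-2, the product of *Ly96*. MYD88 then joins every receptor of the family except TLR3 to the IRAK kinases, and the signal ends in NF-κB, AP-1 and interferon regulatory factors, which switch on cytokine and chemokine genes. In macrophages these receptors set the inflammatory response to microbes and to dying cells.

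The measured quantity was the number of distinct RNA molecules per gene, counted at the 3′ end of polyadenylated RNA, so that levels were compared between libraries and not between genes. The total per TAM library ran from 206394 to 304100 for WT mice (median 242756), from 100254 to 253608 for *muMt*-/- mice (median 149960) and from 151856 to 262606 with GABA (median 192775). For CD8 libraries it ran from 22896 to 76898 (WT, median 42065.5), from 51064 to 77839 (*muMt*-/-, median 67121.5) and from 65356 to 98015 (with GABA, median 80283). The mean depth of *muMt*-/- TAM libraries was 0.673 times the WT mean (p = 0.026 by an exact two-sided permutation, 0.0779 when adjusted for 6 comparisons of depth). In CD8 libraries it was 1.54 times the WT mean without GABA (exact permutation, p = 0.0411, 0.0823 when adjusted) and 1.86 times with GABA (exact permutation, p = 0.00866, 0.0519 when adjusted). Over all genes 3 libraries stood apart from their group. Counts of library pairs scattered 2.96 to 7.01 times as much as counting error alone gives when GABA-treated TAM replicate 1 was in the pair, and 1.30 to 2.85 times otherwise. The values were 2.40 to 3.02 and 1.18 to 2.05 for *muMt*-/- TAM replicate 4, and 2.95 to 4.90 and 1.496 to 2.90 for *muMt*-/- CD8 replicate 1. Those of GABA-treated CD8 replicate 1, 3.01 to 6.16 and 1.46 to 3.68, overlapped. Values below are normalized molecules, that is counts divided by the size factor of the library, unless they are called molecules.

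The sorted cells carried the markers of their labels. In TAM libraries 20 of 20 macrophage markers were detected, with *Apoe* the most abundant (mean of 399.7 normalized molecules), and 15 T cell markers gave only 111 molecules over the 18 libraries. In CD8 libraries 15 of 15 T cell markers were detected, with *Thy1* the most abundant (58.6) and 5622 molecules over the 18 libraries. The 20 macrophage markers were all detected there too, with 1844 molecules. *Xist* had no molecule in any of the 36 libraries, while the Y-linked *Ddx3y* had 2 to 34 in each, so that all libraries were alike in this respect for the X-linked *Tlr7*, *Tlr8* and *Tlr13*.

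In TAMs, 9 of the 10 members were measured deeply enough to be tested (a mean above 1 normalized molecule). *Cd14* had the most molecules, 73 to 280 per library. *Tlr2* had 18 to 54 molecules, *Myd88* 10 to 39, *Tlr4* 10 to 34, *Tlr13* 6 to 32, *Tlr8* 7 to 27, *Tlr3* 1 to 12 and *Tlr7* 0 to 10. *Ly96* was at the lower edge with 0 to 4 molecules, and 6 of the 18 libraries had none. *Tlr9*, the receptor of unmethylated CpG DNA, had 3 molecules over all 18 TAM libraries and could not be tested. Relative to its mean, *Cd14* varied least between TAM libraries (coefficient of variation 22.6%), close to *Tlr4* (22.8%), while *Tlr3* (40.2%) and *Tlr7* (51.7%) varied more at their lower counts.

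Whether the loss of B cells goes with another level of these receptors was addressed by *muMt*-/- and WT TAMs. *Cd14* came nearest to a difference. It had 86.1 to 176 normalized molecules in the 6 WT libraries (median 126, mean 122 ± 32.03 SD), 126 to 192 in the 6 *muMt*-/- libraries (median 160.3, mean 160.2 ± 21.8 SD) and 96.9 to 161 in the 6 GABA-treated *muMt*-/- libraries (median 122, mean 123 ± 23.0 SD). The ranges of all 3 groups overlapped, with the *muMt*-/- libraries at the upper end and the WT and GABA-treated libraries at the same level. The log2 fold change of *Cd14* was 0.35 (SE 0.16) in *muMt*-/- against WT TAMs, which did not pass over the 9469 genes tested (edgeR's quasi-likelihood test, adjusted p = 0.30). With GABA it was -0.35 (SE 0.16) against untreated *muMt*-/- TAMs (edgeR, adjusted p = 0.57), and against WT TAMs it was 0.00 (SE 0.16). The first and the second of these comparisons share the *muMt*-/- libraries. A p that misses the threshold does not show that the levels were equal.

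**Figure D1:**
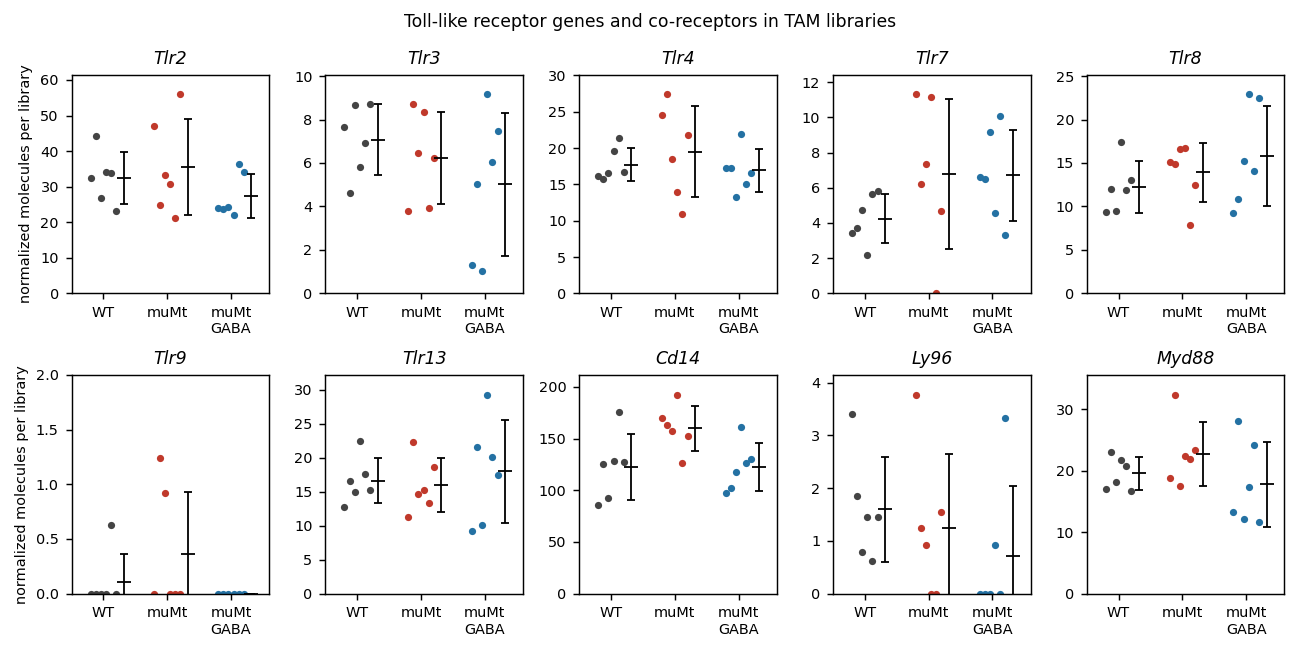
Normalized molecules of each gene (vertical axes, from 0) in the 18 TAM libraries, with 1 point per library, and the mean and SD (n = 6) beside each group. Every group overlaps the others for every gene, and *Cd14* has group means of 122 in WT, 160.2 in *muMt*-/- and 123 in GABA-treated *muMt*-/- mice.

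The surface receptors did not pass the test in any comparison of TAMs. *Tlr2*, which pairs with TLR1 or TLR6 to bind lipoproteins, had 23.2 to 44.3 normalized molecules in WT (median 33.2), 21.1 to 55.9 in *muMt*-/- (median 31.9) and 22.0 to 36.2 in GABA-treated *muMt*-/- libraries (median 24.1). *Tlr4*, the LPS receptor, had 15.7 to 21.3 (median 16.6), 11.0 to 27.4 (median 20.1) and 13.2 to 22.0 (median 16.9). For both genes the *muMt*-/- libraries were the most scattered: 2 lay above and 1 below every WT library for *Tlr2*, and 3 above and 2 below for *Tlr4*. The log2 fold change of *muMt*-/- against WT TAMs was 0.05 (SE 0.21) for *Tlr2* and 0.05 (SE 0.21) for *Tlr4*, and that of GABA-treated against untreated *muMt*-/- TAMs was -0.29 (SE 0.22) and -0.12 (SE 0.22). The log2 fold change of *Ly96* was -0.57 (SE 0.80) without B cells and -0.32 (SE 0.93) with GABA, which at 0 to 4 molecules per library left a wide error. In fits without 1 library these values ran from -1.09 to -0.21 and from -1.85 to 0.19.

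Among the endosomal receptors, *Tlr7*, which binds single-stranded RNA, had 2.18 to 5.81 normalized molecules in WT (median 4.21), 0 to 11.3 in *muMt*-/- (median 6.80) and 3.32 to 10.1 in GABA-treated *muMt*-/- libraries (median 6.56). In either *muMt*-/- group 4 of 6 libraries lay above every WT library, and 1 untreated *muMt*-/- library had no molecule. The log2 fold change against WT TAMs was 0.47 (SE 0.44) without and 0.60 (SE 0.40) with GABA (edgeR, adjusted p = 0.68 and 0.82). With sequencing depth (log2 of the total) added to the fit, a choice made after seeing the data, the former turned to -0.15. *Tlr8*, its neighbour on the X chromosome, had 9.38 to 17.4 (median 11.96), 7.83 to 16.7 (median 15.0) and 9.29 to 22.9 (median 14.7), with log2 fold changes of 0.12 (SE 0.26) and 0.38 (SE 0.24) against WT TAMs. *Tlr13*, the receptor of bacterial ribosomal RNA, had 12.8 to 22.5 (median 15.9), 11.3 to 22.4 (median 15.05) and 9.29 to 29.3 (median 18.8). *Tlr3*, which binds double-stranded RNA, had means of 7.07 ± 1.63, 6.24 ± 2.11 and 5.01 ± 3.28 (SD, n = 6 each), and the 2 lowest libraries, at 1.02 and 1.33, were both GABA-treated. *Myd88* had means of 19.6 ± 2.65, 22.7 ± 5.22 and 17.8 ± 6.89 (SD, n = 6 each), with a log2 fold change of 0.19 (SE 0.22) without B cells and -0.29 (SE 0.23) with GABA. The groups overlapped for each of these genes.

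In sum over TAMs, 0 of the 9 members tested had an adjusted p under 0.05 in *muMt*-/- against WT mice, where 2.05% of all 9469 genes did. Between GABA-treated and untreated *muMt*-/- mice it was 0 of 9 against 0.0211% of all genes, and with GABA against WT it was 0 of 9 against 0.0739%. At an unadjusted p under 0.05 from edgeR the numbers were 1, 1 and 0, *Cd14* in both cases, beside 14.9%, 8.46% and 7.02% of all genes, and DESeq2's adjusted p called 0 in each. The median log2 fold change of the members tested was 0.05, -0.20 and -0.07 in the 3 comparisons, beside -0.05, 0.06 and 0.02 for all genes tested. Of the 9 members, 6 were higher without B cells, as were 46.3% of all genes, and 3 were higher with GABA against untreated *muMt*-/- mice, as were 55.8%.

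Further along the pathway, 4 genes of 2 lists passed in *muMt*-/- against WT TAMs. Of all 9469 genes 2.05% passed, 97 of them higher and 97 lower. Among 17 tested genes that Toll-like receptor signals induce, 3 rose and 0 fell, 14 were higher than in WT TAMs (as were 46.3% of all genes), and the median log2 fold change was 0.40 beside -0.05 for all genes. *Cxcl2*, a neutrophil-attracting chemokine, had 58.0 to 129 normalized molecules in WT (median 88.0), 119 to 216 in *muMt*-/- (median 186) and 56.5 to 130.1 in GABA-treated *muMt*-/- libraries (median 98.3). It rose by a log2 fold change of 0.87 without B cells (SE 0.20, edgeR, adjusted p = 0.0123), and 5 of 6 libraries exceeded the highest WT value. *Ptgs2*, which encodes the prostaglandin-forming COX-2, rose by 0.90 (SE 0.22, edgeR, adjusted p = 0.0218), and *Cxcl3*, another chemokine of the CXC family, by 2.05 (SE 0.57, edgeR, adjusted p = 0.0454) at 0 to 8 molecules in WT and 1 to 11 in *muMt*-/- libraries. The value for *Cxcl3* was 2.92 without WT replicate 6, and DESeq2 gave it no adjusted p. Of 13 negative regulators tested, 1 rose and 0 fell. This was *Dusp1*, a phosphatase that shuts off MAP kinases, with a log2 fold change of 0.57 (SE 0.15, edgeR, adjusted p = 0.0317). With depth in the fit all 4 lost the call (edgeR, adjusted p = 0.394 for *Cxcl2*, 0.327 for *Ptgs2*, and 0.371 for *Cxcl3* and *Dusp1*). In that fit 11 of all 9469 genes passed, in place of 194. The log2 fold changes of the 4 genes were then 0.64, 0.78, 1.91 and 0.51, each lower than without depth and in the same direction. When the libraries were left out in turn, in 12 fits, *Cxcl2* lost the call in 2 (WT replicate 1 and *muMt*-/- replicate 4, which stood apart over all genes), *Ptgs2* in 3 (the same and WT replicate 3), *Dusp1* in 8 and *Cxcl3* in 9. *Il1b* and *Fos*, which did not pass, did so in 2 and 1 of these fits and in DESeq2's test (adjusted p = 0.0458 and 0.0215). Of all genes 67 to 231 passed in the 12 fits, with 87 without WT replicate 1 and 67 without *muMt*-/- replicate 4.

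The other 4 pathway lists had 0 calls in *muMt*-/- against WT TAMs, where 2.05% of all genes passed and 14.9% had an unadjusted p under 0.05. Of 6 other receptors and co-receptors tested, 3 were higher and 3 lower, with the smallest p for *Ly86*, the partner of the Toll-like protein CD180 (log2 fold change -0.56, SE 0.18), and *Tlr12* (-1.30, SE 0.54), and 2 had an unadjusted p under 0.05. Of 8 chaperones and proteases of the receptors, 3 were higher and 5 lower (*Hsp90b1* 0.23 and *Cnpy3* -0.29 on the log2 scale), 0 of them with an unadjusted p under 0.05. Of 20 adaptors and kinases, 14 were higher and 6 lower (*Tab2* 0.58 and *Tbk1* 0.71), 3 of them with an unadjusted p under 0.05. Of 13 transcription factors, 8 were higher and 5 lower (*Irf8* 0.50 and *Fos* 0.47, edgeR, adjusted p = 0.0873 for both), 4 with an unadjusted p under 0.05.

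With GABA, 0 genes of the 6 pathway lists passed against untreated *muMt*-/- TAMs in the fit of all libraries. Of the 17 induced genes, 15 were lower and 2 higher, with a median log2 fold change of -0.33 beside 0.06 for all genes tested, and 6 had an unadjusted p under 0.05. *Cxcl2* was nearest with -0.84 (SE 0.20, edgeR, adjusted p = 0.117). It passed in DESeq2's test (-0.86, adjusted p = 0.00815), without a filter on low counts (-0.84, edgeR, adjusted p = 0.000775) and without GABA-treated replicate 1 (-0.93, edgeR, adjusted p = 0.0236), which stood apart over all genes, where 36 of all genes passed in place of 2 and 0 members did. It also passed without *muMt*-/- replicate 5 (-0.93, edgeR, adjusted p = 0.0449), and not with depth in the fit (-0.73, edgeR, adjusted p = 0.325). Next came *Il1b*, the gene for the cytokine IL-1β, at -0.62 (SE 0.19, edgeR, adjusted p = 0.278). In the other lists the smallest p belonged to *Btk* (-0.95) and *Pik3ap1* (-1.28) among 20 adaptors and kinases, *Nfkbia* (-0.56) and *Il1rl1* (1.23) among 13 negative regulators, and *Fos* (-0.42) and *Atf3* (-0.29) among 13 transcription factors. They were *Tlr12* (1.27) and *Ly86* (0.36) among 6 other receptors, and *Ctsl* (0.15) and *Lgmn* (0.07) among 8 chaperones and proteases. At an unadjusted p under 0.05 there were 1, 2, 1, 1 and 0 genes in these 5 lists, where 8.46% of all genes were.

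Between GABA-treated *muMt*-/- and WT TAMs, 0 genes of the 6 lists passed, and the median log2 fold change of the induced genes was 0.03 beside 0.02 for all genes tested. *Il1a* (0.73) and *Cxcl10* (-0.64) had the smallest p of this list, and both had an unadjusted p under 0.05. In the other lists these were *Tab2* (0.43) and *Irak2* (0.50), *Dusp1* (0.28) and *Cd300a* (0.54), *Irf8* (0.26) and *Rel* (0.64), *Cd180* (-0.72) and *Tlr6* (0.73), and *Hsp90b1* (0.19) and *Ctsl* (0.21), of which only *Tab2* had an unadjusted p under 0.05, as had 7.02% of all genes.

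Other properties of the TAM libraries differed along with the groups. The summed level of 4 nuclear RNAs, led by *Malat1*, was 679 ± 45.3 normalized molecules in WT, 1241 ± 447 in *muMt*-/- and 780 ± 163 in GABA-treated *muMt*-/- TAMs (SD, n = 6 each), and all 6 *muMt*-/- libraries exceeded the highest WT value (p = 0.00216 by exact permutation, two-sided, which is the minimum for 6 against 6, and 0.0866 when adjusted over 60 marker tests). Singly, *Neat1* and *Malat1* rose (edgeR, adjusted p = 8.6e-05 and 0.00385), as did the monocyte markers *Ccr2* and *Plac8* (edgeR, adjusted p = 0.0106 and 0.0485). The 8 monocyte markers, led by *Ccr2*, were 1.74 times as high in *muMt*-/- as in WT TAMs (exact permutation test, p = 0.00866, adjusted p = 0.104), and the 20 macrophage markers 0.869 times (exact permutation test, p = 0.0325, adjusted p = 0.195). Among the latter *Trem2*, *Lyz2*, *C1qb* and *C1qc* fell and *Itgam* rose. With GABA, the monocyte markers were 1.36 times as high as in WT TAMs (exact permutation test, p = 0.00433, adjusted p = 0.0866), and the macrophage markers 0.839 times (exact permutation, p = 0.0303, 0.195 when adjusted). The NK cell markers, led by *Klra4*, were 7.66 times as high (exact permutation, p = 0.00433, 0.0866 when adjusted), at 0 to 1 molecule per WT and 1 to 8 per GABA-treated library. The nuclear RNAs were 0.628 times their level in untreated *muMt*-/- TAMs (exact permutation, p = 0.00866, 0.104 when adjusted). Among the neutrophil markers *Csf3r* was the most abundant, and *Retnlg* and *Camp* were at 0. The summed neutrophil markers were 13.3 ± 12.2, 21.2 ± 8.22 and 15.5 ± 4.72 in the 3 groups (SD, n = 6 each), with medians of 8.51, 23.4 and 16.4 and the highest WT library at 37.0. Their part in the levels of *Cd14*, *Cxcl2*, *Ptgs2*, *Cxcl3* and *Dusp1* was not tested. In libraries of 100 sorted cells, fewer cells of a type and less RNA per cell cannot be told apart.

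In CD8+ T cells the receptors were close to the limit of detection. *Tlr9* had no molecule in the 18 libraries, *Ly96* had 2, *Tlr3* 3, *Tlr4* 11, *Tlr13* 11, *Tlr7* 14, *Tlr8* 17 and *Tlr2* 32 over all 18 libraries. *Myd88*, which T cells also use downstream of the receptors of IL-1 and IL-18, had 56 molecules, at most 9 in a library. *Cd14* had 221. Only *Tlr2*, *Cd14* and *Myd88* had a mean above 1 normalized molecule and were tested, over 6663 genes.

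*Cd14* had 0 to 12 molecules in the 6 CD8 libraries of WT mice (median 0.5), 5 to 61 in those of *muMt*-/- mice (median 12.5) and 1 to 59 in those of GABA-treated *muMt*-/- mice (median 8). In each group 1 library lay far above the rest: WT replicate 5 with 12 molecules, *muMt*-/- replicate 1 with 61, which stood apart over all genes, and GABA-treated *muMt*-/- replicate 1 with 59. The log2 fold change of *Cd14* was 2.08 (SE 0.74) in *muMt*-/- against WT mice, which did not pass (edgeR, adjusted p = 0.559). It was 1.17 without *muMt*-/- replicate 1 and 3.16 without WT replicate 5. Without a filter on low counts it passed (log2 fold change 2.10, edgeR, adjusted p = 2.7e-05), as did GABA-treated *muMt*-/- against WT mice (1.49, edgeR, adjusted p = 0.0324, where the filtered fit gave 1.45 and 0.737), and the cause was not tested. Of 13109 genes 72 and 64 passed in these 2 unfiltered comparisons, 72 and 60 of them higher, where 0 passed with the filter. The value of 1.45 was 0.24 without GABA-treated *muMt*-/- replicate 1 and 2.54 without WT replicate 5, and with depth in the fit it was 0.12. Between GABA-treated and untreated *muMt*-/- mice the log2 fold change was -0.63 (SE 0.58), with 0.28 without *muMt*-/- replicate 1 and -1.81 without GABA-treated *muMt*-/- replicate 1.

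Macrophage markers moved in the same libraries. As a share of all molecules, and relative to the mean of the 18 TAM libraries, the 20 macrophage markers stood at 1.49% to 8.38% in the CD8 libraries of WT mice, at 5.36% to 33.6% in those of *muMt*-/- mice and at 4.20% to 23.0% in those of GABA-treated *muMt*-/- mice. All 20 were detected, *Cd163* with at most 3 molecules in all and *Ctsd* as the most abundant. Their summed level was 3.56 times the WT level in *muMt*-/- mice (exact permutation, p = 0.0173, 0.173 when adjusted), 2.32 times without *muMt*-/- replicate 1, and 3.33 times with GABA (exact permutation, p = 0.0238, 0.195 when adjusted). *Cd14* stood at 135% of its mean TAM level in *muMt*-/- replicate 1, where the markers stood at 33.6%, and at 84.8% in GABA-treated *muMt*-/- replicate 1, where they stood at 20.4%. In WT replicate 5 the values were 32.7% and 8.38%. Other libraries departed from this order: GABA-treated *muMt*-/- replicate 3 had *Cd14* at 19.2% with markers at 23.0%, and *muMt*-/- replicate 2 had 29.3% with markers at 5.36%. Over the 18 libraries *Cd14* and the markers were correlated on the log2(percent + 1) scale (Pearson's r = 0.841, Spearman's rho = 0.851), as a description of points that share group and depth. The part of macrophage RNA in the *Cd14* values of these libraries was not tested.

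**Figure D2:**
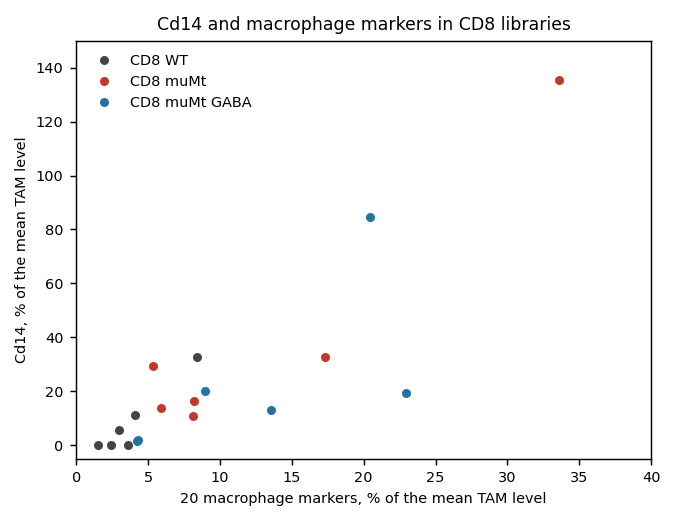
Level of *Cd14* (vertical axis) against the summed level of 20 macrophage markers (horizontal axis) in the 18 CD8 libraries, both as shares of all molecules and in percent of the mean of the 18 TAM libraries, with 1 point per library coloured by group. *Cd14* tends to be higher where the markers are, with 135% and 33.6% in *muMt*-/- replicate 1, while GABA-treated *muMt*-/- replicate 3 has 19.2% and 23.0%.

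*Tlr2* had 0 to 1 molecule in the CD8 libraries of WT mice, 0 to 5 in those of *muMt*-/- and 0 to 7 in those of GABA-treated *muMt*-/- mice, with log2 fold changes of 1.46 (SE 0.86), 0.07 (SE 0.62) and 1.53 (SE 0.84) for *muMt*-/- against WT, GABA-treated against untreated *muMt*-/- and GABA-treated *muMt*-/- against WT mice. Its 3 molecules over the WT libraries were too few to give the values against WT mice a direction. The log2 fold changes of *Myd88* in these comparisons were 0.54 (SE 0.61), 0.33 (SE 0.48) and 0.87 (SE 0.57), and the first was 0.013 without *muMt*-/- replicate 1. In CD8+ T cells 0 of the 3 members tested passed in each of the 3 comparisons, as did 0% of all 6663 genes in each. At an unadjusted p under 0.05 from edgeR there were 1, 0 and 0 members, the former *Cd14*, and 6.17%, 3.71% and 6.89% of all genes, and DESeq2's adjusted p called 0 members in each. The median log2 fold change of all genes was 0.15, 0.03 and 0.21 with TMM, and 0.06, -0.02 and 0.06 with DESeq2's size factors, so that single values in these T cells carry such a shift.

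Pathway genes in CD8+ T cells had 0 calls in all 3 comparisons, while *Ctss* and *Il1rn* passed for *muMt*-/- against WT mice without WT replicate 5 (edgeR, adjusted p = 0.0096 and 0.0311), the library with all 5 molecules of *Il1rn* in WT mice, and without a filter. Of all genes 13 passed without WT replicate 5 and 72 without a filter, all of them higher. In fits without 1 library the log2 fold change of *Ctss* ran from 0.95 to 2.18 and that of *Il1rn* from 2.10 to 5.87. Both were highest without WT replicate 5, where *Il1rn* had no molecule left in WT mice. In *muMt*-/- against WT mice, 14 of 15 induced genes tested were higher, as were 62.3% of all genes. The median log2 fold change was 0.74 beside 0.15 for all genes. *Il1rn* (2.53, 0 to 5 molecules in WT libraries) and *Tnf* (2.21, 0 to 2 molecules) had the smallest p. Of the 15, 6 had an unadjusted p under 0.05, as had 6.17% of all genes. In the same comparison 15 of 15 macrophage markers tested were higher, with a median log2 fold change of 1.95. The part of macrophage RNA in the induced genes was not tested. Of 7 chaperones and proteases, 6 were higher (*Ctss* 1.36 and *Lgmn* 3.15, the latter with 2 molecules in all WT libraries). An unadjusted p under 0.05 was reached by 4 of them, beside the same 6.17% of all genes. *Ctss* and *Lgmn*, both lysosomal proteases, had 11.7 and 116 times the share of molecules in TAMs that they had in CD8+ T cells of WT mice, with 52 of 93 T cell molecules of *Ctss* in WT replicate 5 (21.3 times without it) and both of *Lgmn* in WT replicate 6. The smallest p of the other lists belonged to *Zc3h12a* (1.66) and *Nfkbia* (0.41), *Irf8* (0.63) and *Atf3* (1.74), *Chuk* (-1.05) and *Map3k7* (-1.06), and *Ly86* (1.35), the only other receptor tested. The fitted values of *Lgmn*, *Ly86* and *Tnf* rest on 2, 3 and 3 molecules over the WT libraries, too few to give a direction.

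With GABA, the smallest p in CD8+ T cells against untreated *muMt*-/- mice belonged to *Ccl5* (1.21) and *Cxcl10* (-1.35) among the induced genes, of which 11 of 15 were lower. *Ccl5*, a chemokine that CD8+ T cells make themselves, had a mean of 43.8 ± 30.5 normalized molecules in *muMt*-/- and 97.6 ± 43.9 with GABA (SD, n = 6 each), beside 82.8 ± 28.4 in WT mice. The other lists gave *Tollip* (1.29) and *Zc3h12a* (-0.89), *Rel* (-1.04) and *Irf8* (0.33), *Map3k7* (1.05) and *Tab2* (0.35), *Cnpy3* (0.86) and *Ctss* (-0.37), and *Ly86* (-1.11). Against WT mice, GABA-treated *muMt*-/- mice gave *Il1rn* (2.23) and *Tnf* (2.16), *Lgmn* (3.14) and *Ctss* (0.99), *Irf8* (0.96) and *Atf3* (1.52), *Tollip* (1.89) and *Tnfaip3* (-0.55), *Chuk* (-1.15) and *Irak1* (0.72), and *Ly86* (0.24). Here too the values of *Lgmn*, *Ly86* and *Tnf*, and that of *Tollip* with 3 molecules, rest on too few WT molecules to give a direction.

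TAMs and CD8+ T cells of WT mice were compared in a fit of all 36 libraries to see in which cell the receptors are measured. Over the 6 WT libraries of a cell type, with 1468266 molecules in TAMs and 262840 in T cells, *Cd14* had 985 and 19 molecules, a share of all molecules 9.28 times as high in TAMs (95% exact counting interval 5.91 to 15.5). Of the 19 molecules 12 were in WT replicate 5, without which the share was 20.2 times as high. *Tlr2* had 253 and 3 molecules (15.1 times, 5.11 to 73.7) and *Tlr4* 141 and 1 (25.2 times, 4.46 to 1004). *Tlr8* had 97 and 1 (17.4 times, 3.04 to 693), *Tlr13* 132 and 3 (7.88 times, 2.64 to 38.7) and *Tlr7* 34 and 1 (6.09 times, 1.02 to 247). *Tlr3* had 56 molecules in TAMs and 0 in T cells, and was at least 3.34-fold higher when 3 molecules over the 6 T cell libraries are taken as the limit of a count of 0. *Myd88* differed least among the members tested, with 154 and 9 molecules (3.06 times, 1.57 to 6.83). *Ly96*, with 12 and 1 molecules (2.15 times, 0.32 to 91.8), and *Tlr9*, with 1 and 0, were too low to be tested. These intervals cover counting error only.

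**Figure D3:**
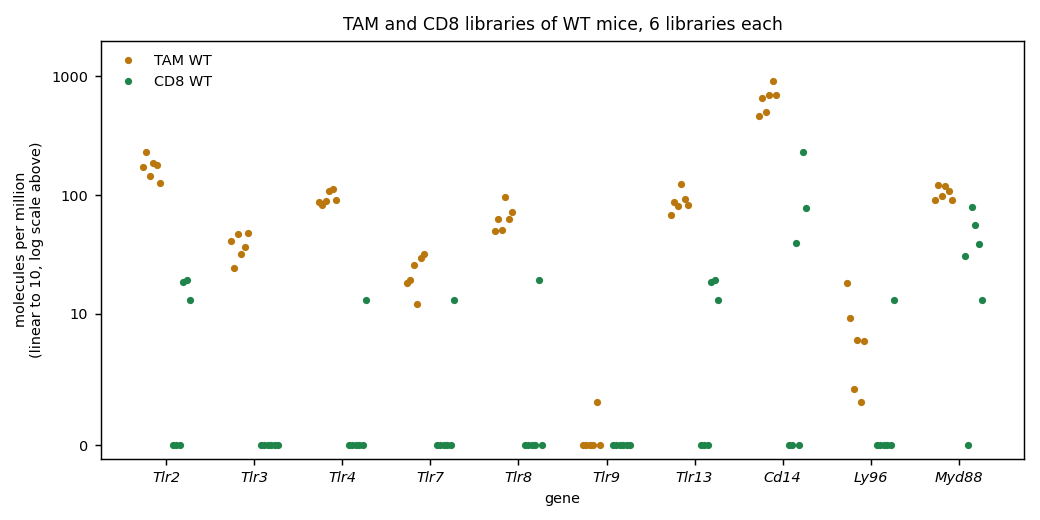
Molecules per library, scaled to the same total (vertical axis, linear up to 10 and logarithmic above) of each gene (horizontal axis) in the 6 TAM and the 6 CD8 libraries of WT mice, with 1 point per library. The TAM points lie above every CD8 point for *Tlr2*, *Tlr3*, *Tlr4*, *Tlr13*, *Tlr8*, *Cd14* and *Myd88*. *Tlr9* is near 0 in both cell types, and *Ly96* is low in both with overlapping points.

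All 8 members tested passed and were higher in TAMs, where 22.7% of the 8477 genes in this fit passed, 1420 of them higher in TAMs and 508 lower. The adjusted p from edgeR lay between 3.53e-08 for *Tlr2* and 0.0425 for *Tlr7*, with a log2 fold change of 3.52 (SE 0.57) for *Cd14*, 4.13 (SE 0.56) for *Tlr2* and 4.62 (SE 0.75) for *Tlr4*. *Tlr7* lost the call with DESeq2's size factors, with DESeq2's Wald test and with the replicate number as a block (adjusted p = 0.0678, 0.119 and 0.059). The filter on the mean lets a gene in on its TAM counts alone, so that this count is a description. The median log2 fold change of all genes was 0.36 with TMM and 0.20 with DESeq2's size factors.

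For the pathway lists, counts of genes that passed between the cell types stand beside 22.7% of all genes, and they too include genes let in by their TAM counts alone. Of 8 chaperones and proteases tested, 7 were higher in TAMs and 0 lower, among them *Unc93b1*, which carries the nucleic-acid receptors to endosomes, with 19.2 times the share (750 and 7 molecules), and the endosomal proteases *Lgmn*, *Ctsb*, *Ctss* and *Ctsl* (116, 6.32, 11.7 and 2.10 times). For *Ctsl* 30 of 49 T cell molecules were in WT replicate 6, without which it was 3.83 times. Of 4 other receptors, 3 were higher, *Ly86* (19.8 times), *Cd36* (at least 5.55-fold, 93 and 0 molecules) and *Tlr12* (6.98 times). Of 18 adaptors and kinases, 2 were higher, *Btk* (at least 2.69-fold, 45 and 0 molecules) and *Slc15a4* (6.62 times), and 0 were lower. Among 13 transcription factors 6 were higher and 2 lower, with *Fos* (4.41 times), *Irf5* (5.45), *Atf3* (7.59), *Irf7* (2.86) and *Irf8* (1.45) at the smallest p. Of 14 negative regulators 6 were higher, among them *Dusp1* (3.51 times), *Lilrb4a* (3.56) and *Inpp5d* (2.11), and 3 were lower, among them *Tnfaip3* (0.146 times) and *Sigirr* (0.0298 times, 1 and 6 molecules). Of 17 induced genes 10 were higher, among them *Il1rn* (16.1 times), *Cxcl10* (5.40) and *Acod1* (11.5), and 3 were lower, among them *Ccl3* and *Ccl4* (0.0618 and 0.0724 times), chemokines that activated T cells also make. Without WT replicate 5 of the T cells the ratio was 47.7 for *Ly86*, 16.06 for *Irf5*, 12.2 for *Atf3*, 9.09 for *Cxcl10* and 18.5 for *Acod1*, and *Il1rn* had no molecule left.

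Whether the 2 cell types responded differently was tested by interaction contrasts. For *muMt*-/- against WT mice, 0 of 8 members passed, beside 0.0118% of all 8477 genes. *Tlr2*, *Tlr3*, *Tlr4*, *Tlr7*, *Tlr8* and *Tlr13* had 0 to 3 molecules over the CD8 libraries of WT mice, too few to give their difference a direction. *Cd14* was nearest, with a log2 difference of -1.77 (SE 0.76, edgeR, adjusted p = 0.41). *Cd14* passed without a filter on low counts (-1.82, edgeR, adjusted p = 0.00565), where 79 of 15593 genes did, 76 of them lower. Of its T cell molecules 12 of 19 in WT mice were in replicate 5, and *muMt*-/- replicate 1 held 61. All 19 macrophage markers tested had negative differences as well, with a median of -2.32, and 0 of them passed. All genes had a median of -0.30 in this contrast with TMM and of -0.11 with DESeq2's size factors. For GABA-treated against untreated *muMt*-/- mice, 0 of 8 members passed, beside 0% of all genes, and *Cd14* had a difference of 0.24 (SE 0.61). At an unadjusted p under 0.05 there were 1 and 0 members, beside 10.1% and 4.53% of all genes, and DESeq2 called 0 in both.

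The pathway lists had 0 calls in either interaction contrast. For *muMt*-/- against WT mice the smallest p belonged to *Ctss* (-1.56) and *Lgmn*, *Ly86* and *Cd36*, *Ccl5* (1.57) and *Il1rn* (-2.21), *Chuk* (1.54) and *Slc15a4*, *Zc3h12a* (-1.34) and *Cd300a*, and *Irf1* (-0.63) and *Atf3* (-1.42). Those without a value had 0 to 3 molecules over the CD8 libraries of WT mice, too few to give a direction. For the GABA pellet it belonged to *Ccl5* (-1.86, edgeR, adjusted p = 0.673) and *Cxcl10* (1.38), *Ly86* (1.5045) and *Tlr1* (-0.57), *Cnpy3* (-0.84) and *Ctsl* (0.43), *Map3k7* (-0.98) and *Tab2* (-0.52), *Tollip* (-1.53) and *Sigirr* (-2.47), and *Irf8* (-0.60) and *Rel* (0.64).

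The members lie on 7 chromosomes of the mouse genome (mm10, positions from the RefSeq annotation of the same build). *Tlr7* (chrX:167303380-167330574) and *Tlr8* (chrX:167241123-167264329) are neighbours, and *Tlr13* (chrX:106143275-106160493) is on the same chromosome. *Tlr9* (chr9:106222598-106226876) and *Myd88* (chr9:119335934-119340018) share chromosome 9. *Tlr2* is at chr3:83836272-83841824, *Tlr3* at chr8:45395665-45411075, *Tlr4* at chr4:66827551-66846581, *Ly96* at chr1:16688456-16709605 and *Cd14* at chr18:36725064-36726815.

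Pairs of members differed in how they varied across the 18 TAM libraries, with counting noise in all and most of it in the low counts of *Tlr3* and *Tlr7*. Among the 8 with a mean of at least 5 normalized molecules, Pearson's r of log2 values was highest between *Tlr3* and *Tlr13* (0.67), followed by *Tlr8* and *Cd14* (0.58) and *Tlr13* and *Myd88* (0.55), and lowest between *Tlr8* and *Myd88* (-0.19). The neighbours *Tlr7* and *Tlr8* had an r of 0.34. Among 5310 genes, those most like *Cd14* were *Tmem189* (r = 0.83), *Il1b* (0.82) and *Cd74* (0.80), the latter the invariant chain of MHC class II. Those most like *Tlr2* were *B4galt6* (0.73), *Hadha* (0.72) and *Tgfbr1* (0.70). Those most like *Myd88* were *Nrbf2* (0.81), a gene whose name had been turned into a date in the table (0.74), and *Lims1* (0.71). These values describe libraries that share group and depth, and the highest of so many genes are high by selection.

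RefSeq promoter sequences (GRCm38.p6) were matched for 6 members, *Tlr2*, *Tlr3*, *Tlr8*, *Tlr9*, *Tlr13* and *Myd88*, and not for *Tlr4*, *Tlr7*, *Cd14* and *Ly96*. For *Tlr2* and *Tlr3* the start that RefSeq lists for the promoter lies so that the stretch falls mostly or wholly inside the span of the gene given above. The 250 bases before the listed start were searched on both strands for GAGGAA, the core bound by the myeloid factor PU.1. It was found before *Tlr8*, *Tlr9* and *Tlr13*, that is in 3 of 6, and in 23.3% of 32851 promoters of the same length. A 10-letter form of the NF-κB site, searched the same way, was found for *Tlr3* alone, and in 1.21% of all promoters. A match is a description of letters and not of a bound site. The sequences of the 2 X-linked receptors that passed between the cell types and hold the PU.1 core are shown 5′ to 3′ on the strand of the gene, with the core or its reverse complement in capitals, *Tlr13* at chrX:106143025-106143274 on the plus strand and *Tlr8* at chrX:167264330-167264579 on the minus strand.
Tlr13: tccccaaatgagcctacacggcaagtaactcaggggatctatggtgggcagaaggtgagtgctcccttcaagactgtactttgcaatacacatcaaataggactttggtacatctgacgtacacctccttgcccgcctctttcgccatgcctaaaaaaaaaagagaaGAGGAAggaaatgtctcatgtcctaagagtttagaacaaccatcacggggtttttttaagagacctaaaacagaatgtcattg
Tlr8: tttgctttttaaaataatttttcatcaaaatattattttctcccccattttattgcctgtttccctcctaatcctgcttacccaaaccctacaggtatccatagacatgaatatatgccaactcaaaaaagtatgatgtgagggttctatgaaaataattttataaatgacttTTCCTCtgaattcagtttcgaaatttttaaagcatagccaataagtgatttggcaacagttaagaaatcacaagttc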

How the data were processed

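Libraries of 100 sorted cells were made with molecular barcodes, so that distinct molecules and not amplified copies were counted. The authors mapped the reads to mm10 with STAR and the refFlat annotation, and deposited raw counts of molecules per gene and library for 24781 genes. The labels name spike-in RNAs, and 0 rows carry a spike-in name. The table has 0 columns without a sample. Strand-specific counting is not given in the sources used here.

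Normalized molecules are counts divided by DESeq2's size factors over the 18 libraries of a cell type. Genes with a mean above 1 were tested with edgeR 4.0.16 (quasi-likelihood F-test, TMM, 1 coefficient per group, Benjamini-Hochberg adjustment over all genes tested, threshold 0.05) in R 4.3.3, in a fit of the 18 libraries of a cell type or, between cell types, of all 36. Alternatives were DESeq2's size factors, the Wald test of DESeq2 1.42.0, no filter, the replicate number as a block, the 12 libraries of a comparison and leaving out each library. The fit with depth as a covariate and the alternatives for pathway genes (those called in the fit of all libraries or in a fit without 1) were added later, with the results in view, as were ratios of molecules and of markers without each library. Depth and summed markers were compared by two-sided exact permutation tests (scipy 1.17.1), adjusted over 6 and 60 tests. The procedure was tested on simulated data, and the outcome is not reported here.

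The members and the lists of pathway and marker genes were chosen with earlier results of these data known. Named genes are all members, for each pathway list and comparison the genes with an adjusted p under 0.05 (up to 5) or otherwise the 2 with the smallest p, the most abundant marker of each list and those at 0, and the 3 genes most correlated with each member of at least 20 normalized molecules in TAMs. None of the marker lists named here had a group difference with an adjusted p under 0.05. Dendritic cell markers were led by *Bst2* in TAMs and *Ccr7* in CD8+ T cells, with *Cd209a* at 0 in both. NK cell markers gave 26 molecules in TAMs and 118 in CD8+ T cells (*Ncr1* and *Klra8* at 0), mast cell or basophil markers 11 and 26, mostly *Kit* (*Cpa3*, *Tpsb2* and *Fcer1a* at 0). Tumour and stroma markers were led by *Col3a1*, with *Krt18* at 0. The list of B cell markers is not reported here.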

Additional observations from a re-analysis of the deposited data

Results flagged for a closer look

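Of 60 groups of 6 libraries, 10 had a library far from the others, by the gap to its nearest neighbour as a share of the whole range. The rate of about 1 in 20 that chance gives for this cut-off assumes normally distributed values. Some of the values here are low and uneven counts, so that 10 of 60 cannot be compared with that rate and is a description. In CD8+ T cells, *Cd14* stood at 61.7 normalized molecules in *muMt*-/- replicate 1 (next 13.1), at 37.5 in GABA-treated *muMt*-/- replicate 1 (next 8.06) and at 13.7 in WT replicate 5 (next 4.51). The summed macrophage markers stood apart in the first and the last of these libraries, at 314 (next 142) and 72.0 (next 34.6). *Myd88* stood at 8.09 in CD8 *muMt*-/- replicate 1 (next 2.498) and at 7.09 in CD8 GABA-treated *muMt*-/- replicate 6 (next 3.12).

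In TAMs, *Ly96* stood at 3.32 normalized molecules in GABA-treated *muMt*-/- replicate 6, with the next library at 0.916 and the other 4 at 0. The summed macrophage markers stood at 3081 in *muMt*-/- replicate 1 (next 2685) and the nuclear RNAs at 2127 in *muMt*-/- replicate 4 (next 1203). GABA-treated replicate 1 stood apart over all genes, with a scatter of counts of 2.96 to 7.01 times counting error against the other 5, which gave 1.30 to 2.85 among themselves. So did *muMt*-/- TAM replicate 4 (2.40 to 3.02, and 1.18 to 2.05 among the others) and *muMt*-/- CD8 replicate 1 (2.95 to 4.90, and 1.496 to 2.90).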

How the results depend on the processing

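No member was called between groups within a cell type under any alternative except without a filter on low counts, where *Cd14* alone gave 1 member in CD8+ T cells of *muMt*-/- against WT mice, 1 in GABA-treated *muMt*-/- against WT mice and 1 in the interaction contrast for *muMt*-/-. Without the filter 72 and 64 of 13109 genes and 79 of 15593 passed in these 3 comparisons, where 0, 0 and 1 did with it. The cause was not tested. Between TAMs and CD8+ T cells 7 to 8 members were called.

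Between groups of a cell type, same-numbered libraries had r from -0.180 to 0.281, and at most 1 of 6 correlated best with its own number. Same-numbered TAM and CD8 libraries were not compared. With the replicate number as a block, 0 members were called in each comparison of groups and 7 between cell types.

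Some uncalled values changed sign, and not all of them were near 0. *Cd14* in GABA-treated *muMt*-/- against WT TAMs was -0.000078 with DESeq2's size factors, -0.00032 with DESeq2's test, -0.027 without a filter and -0.019 with 12 libraries. With the depth covariate, *muMt*-/- against WT TAMs gave -0.31 for *Tlr2*, -0.092 for *Tlr4*, -0.15 for *Tlr7* and 0.076 for *Tlr13*, and with GABA *Ly96* had 0.29 in TAMs and *Tlr2* -0.22 in CD8+ T cells.

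Over fits without 1 library, *muMt*-/- against WT TAMs gave -0.12 to 0.18 for *Tlr2*, -0.086 to 0.20 for *Tlr4* and -0.22 to 0.019 for *Tlr13*. GABA-treated against untreated TAMs gave -0.28 to 0.0083 for *Tlr4*, -0.24 to 0.35 for *Tlr7* and -1.85 to 0.19 for *Ly96*, and against WT TAMs -0.041 to 0.25 for *Tlr13* and -0.10 to 0.13 for *Cd14*. In CD8+ T cells GABA-treated against untreated *muMt*-/- mice gave -0.42 to 0.50 for *Tlr2*, -1.81 to 0.28 for *Cd14* and -0.0087 to 0.85 for *Myd88*.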
